A study of Mus musculus with 4 samples.

Results

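Actin cytoskeleton and motility genes were followed across 4 populations of myeloid cells from the mouse large intestine. The members were a list of 37 genes, and every probe set whose only gene symbol was a listed gene was read, a rule that uses no signal. Of 22690 probe sets on the array 75 met this rule, and they named 34 of the 37 genes. Among those genes 12 had 1 probe set and 22 had several. Actr2 and Arpc3 had no probe set naming them alone, and Arpc1b is named by 2 probe sets together with a further gene, so these 3 were not analysed here. In all 4 arrays 64 of the 75 probe sets reached the floor, a signal of 102.9 that is the median over all probe sets and arrays, 3 reached it in some arrays and 8 in none. Each gene is represented by its brightest probe set (by mean log2 signal over the arrays), with sets ending in _x_at used only where there was no other.

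All 4 populations came from the lamina propria of C57BL/6J mice and were told apart by surface markers, with no treatment or allele named. Cells with both CD11c and CD11b were split by the receptor CX3CR1 into CX3CR1high macrophages and CX3CR1- cells, which the labels also title DC. The CD11b+ cells, titled Mf, were negative for CD11c, and the CD11chigh dendritic cells (DCs), titled CD103, were negative for CD11b. Signals are given in the order CX3CR1high macrophages, CD11b+ cells, DCs, CX3CR1- cells wherever 4 values stand without names. The age, sex and number of the mice are not given in the sources used here. Each population has 1 array, so there were no replicates, no test could be made, and the precision of every ratio is limited by having 1 array on each side.

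Actin is made as a monomer that joins into filaments, and cells crawl, engulf and hold on to neighbours by building and taking down these filaments. Profilin, thymosins and cofilin handle the monomers and old filaments, the Arp2/3 complex starts branches when the Wiskott-Aldrich proteins switch it on, and capping proteins and gelsolin end or cut filaments. Talin, vinculin and zyxin tie filaments to adhesion sites, and ezrin, radixin and moesin tie them to the cell membrane. DCs are known for fast migration through tissue to lymph nodes, while resident gut macrophages stay close to the epithelium and engulf material there.

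Serum response factor, a transcription factor that binds the CArG box, is known to drive many actin genes, so the 250 bases before the start of each gene in RefSeq (GRCm38.p6) were searched for that box, which reads the same on both strands. Promoters were found for 34 of the 37 listed genes, 42 in all, and 4 of these held a CArG box (9.52%), against 1.47% of all 32851 promoters. The 4 genes were Actg1, Vcl, Vil1 and Arpc4. No promoter was at hand for Lsp1, Coro1b and Actb, which were not searched, so these 34 genes differ from the 34 measured. The promoters of Actg1, a cytoplasmic actin, Vcl, an adhesion protein, and Vil1, a bundler of epithelial microvilli, are printed because these 3 boxes lie in genes with different patterns over the arrays. They run 5′ to 3′ on the strand of the gene, with the CArG box in capitals, and are Actg1 at chr11:120348496-120348745 (minus strand), Vcl at chr14:20929148-20929397 (plus strand) and Vil1 at chr1:74409134-74409383 (plus strand).
Actg1: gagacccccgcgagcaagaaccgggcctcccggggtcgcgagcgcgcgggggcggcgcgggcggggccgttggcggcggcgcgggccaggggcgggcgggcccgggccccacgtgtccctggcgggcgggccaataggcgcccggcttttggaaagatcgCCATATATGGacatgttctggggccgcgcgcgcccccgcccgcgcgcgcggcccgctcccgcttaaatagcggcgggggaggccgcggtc
Vcl: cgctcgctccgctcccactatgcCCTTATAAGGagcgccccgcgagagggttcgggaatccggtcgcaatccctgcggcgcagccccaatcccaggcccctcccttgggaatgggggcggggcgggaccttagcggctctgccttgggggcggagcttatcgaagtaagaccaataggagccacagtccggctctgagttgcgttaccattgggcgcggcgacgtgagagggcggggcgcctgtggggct
Vil1: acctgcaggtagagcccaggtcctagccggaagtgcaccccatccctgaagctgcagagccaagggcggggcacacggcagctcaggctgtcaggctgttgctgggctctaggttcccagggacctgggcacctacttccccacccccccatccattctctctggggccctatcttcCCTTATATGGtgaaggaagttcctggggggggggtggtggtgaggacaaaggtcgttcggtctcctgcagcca
Counted back from the start, the box began 90 bases before it in Actg1, 227 in Vcl and 73 in Vil1. The GC box GGGCGG, searched on both strands, lay in 27 of the 42 member promoters (64.3%) and in 32.7% of all promoters. GAGGAAGT, a sequence bound by the myeloid factor PU.1 and also searched on both strands, lay in 0 of the 42 and in 2.44% of all promoters. Overlap between these 3 motifs was allowed.

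The genes of the sorting markers followed the labels in part. Itgam (CD11b) was below the floor in the DCs alone, Cx3cr1 was highest in the CX3CR1high macrophages, and Itgae (CD103) was highest in the DCs. Itgax (CD11c) read 1826, 1864, 5893 and 8412, so the CD11b+ cells, sorted without CD11c, were close to the CX3CR1high macrophages, and the CX3CR1- cells were above the DCs labelled CD11chigh. Cx3cr1 read 291 in the CX3CR1- cells, above the floor. Array medians over all probe sets lay between 88.5 in the DCs and 110.2 in the CD11b+ cells. The DC median was 0.31 log2 units below that of the CX3CR1high macrophages, so counts against the DCs are also given after setting the medians equal.

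The member genes had their lowest signal in the CX3CR1high macrophages more often than in any other population. This was so for 24 of the 34 genes (70.6%), while among all 7847 genes reaching the floor in at least 1 array 22.0% had their lowest signal there. Genes with several arrays below the floor have no lowest array but still count in both totals. In such bulk samples fewer cells of a type and less RNA per cell cannot be told apart. The DCs held the highest signal of 16 member genes (47.1%, against 32.4% of all genes), the CX3CR1- cells of 9 (all genes 18.3%), the CD11b+ cells of 6 (all genes 23.4%) and the CX3CR1high macrophages of 3 (all genes 25.9%). The ratio of highest to lowest signal had a median of 1.87 over the members and 1.82 over all genes, and 18 of the 34 members spanned less than 2-fold (52.9%, against 58.6% of all genes). Lsp1, Capg, Coro1a, Vasp and Gsn had the 5 widest measured spans.

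**Figure D1:**
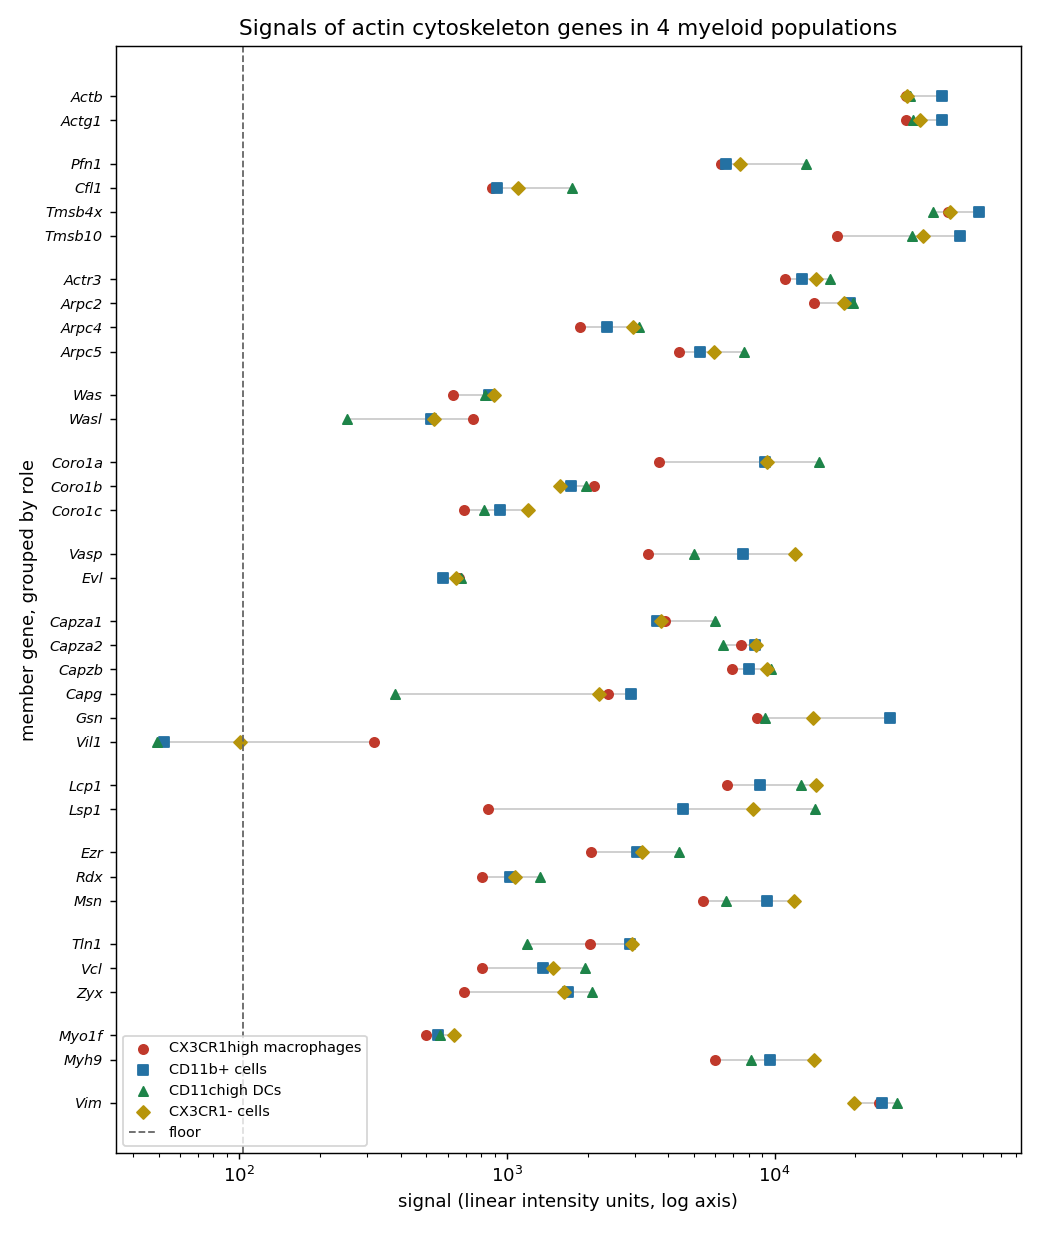
Signals of the 34 member genes, 1 probe set per gene, in linear intensity units on a log axis, with 1 point per population (1 array each), a grey line from the lowest to the highest and a dashed line at the floor of 102.9. The red circles of the CX3CR1high macrophages sit at the left end of the line in 24 genes, and the line is longest for Lsp1.

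Against each of the 3 other populations, more members were at least 2-fold lower than at least 2-fold higher in the CX3CR1high macrophages. Over the CD11b+ cells 6 of 34 members were lower (17.6%; all genes 5.83%) and 1 was higher (all genes 4.66%), with a median log2 ratio of -0.40 over the members and -0.02 over all genes. Over the CX3CR1- cells 8 of 34 were lower (23.5%; all genes 6.54%) and 1 was higher (all genes 8.56%), with medians of -0.41 and 0.02. Over the DCs 6 of 34 were lower (17.6%; all genes 10.2%) and 3 were higher (all genes 17.4%), with medians of -0.46 and 0.02. With equal medians the counts over the DCs became 12 lower (all genes 18.3%, up from 10.2%) and 3 higher (all genes 13.3%), and the median log2 ratio was -0.77 over the members and -0.27 over all genes. The 3 comparisons share the array of the CX3CR1high macrophages, so they are not independent of each other.

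**Figure D2:**
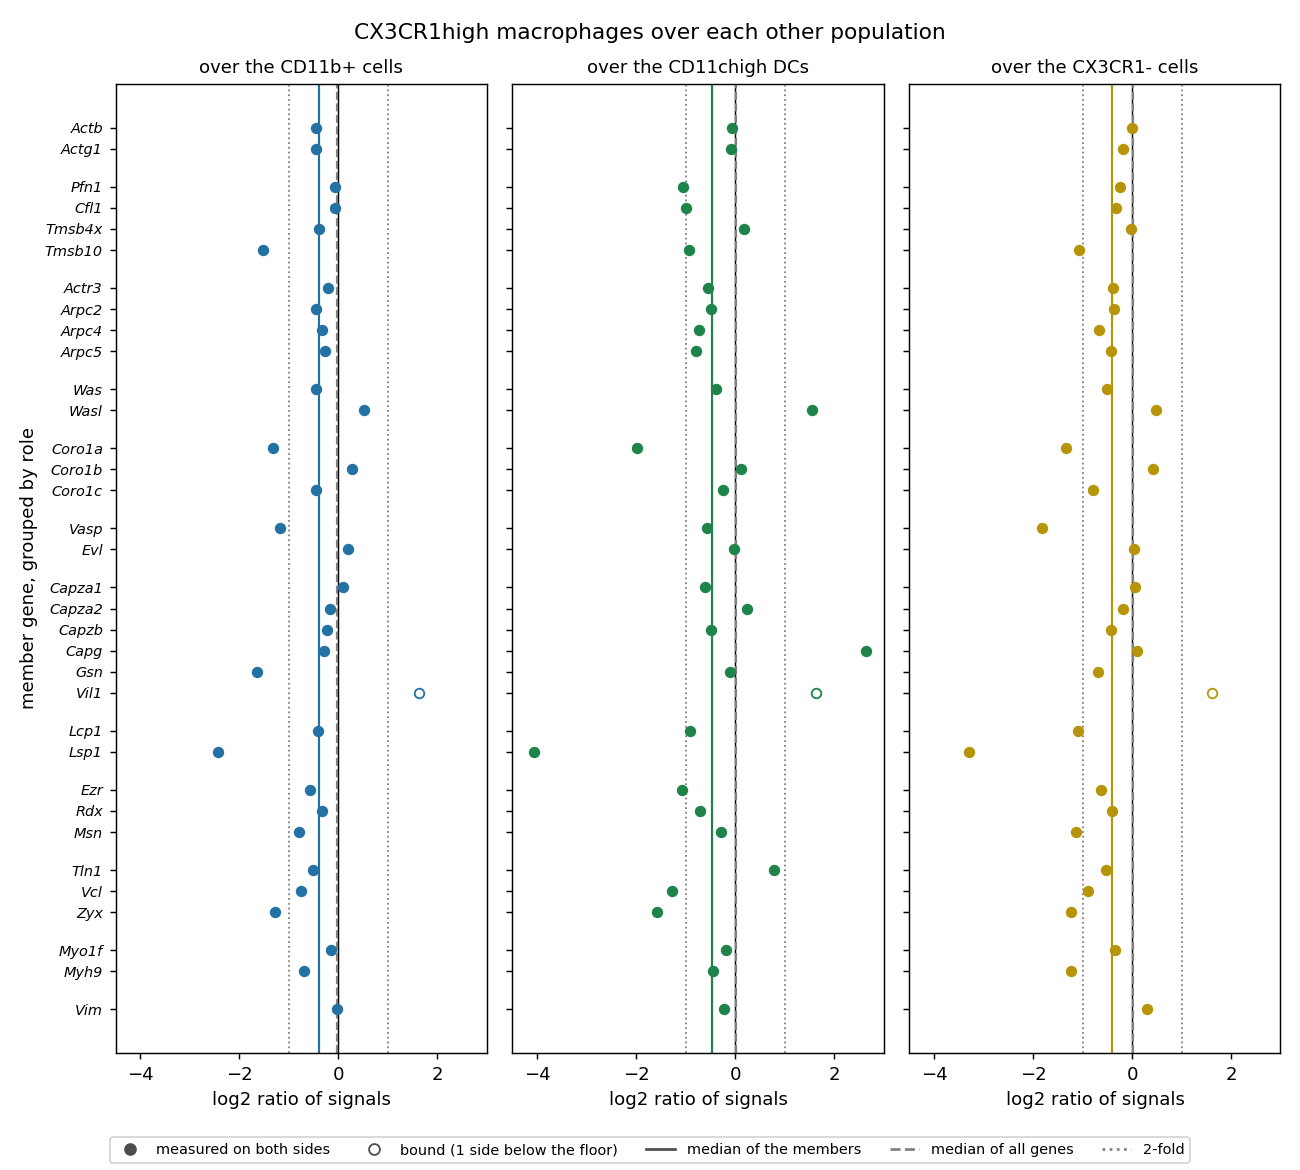
Log2 ratio of the CX3CR1high macrophages over each other population (x axis) for every member gene, with filled points measured on both sides, open points for bounds, dotted lines at 2-fold, a coloured line at the member median and a dashed line at the median of all genes. The member medians lie at -0.40, -0.46 and -0.41, to the left of the medians of all genes, and Lsp1 is the leftmost point in all 3 panels.

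Among the other 3 populations the members differed less. Between the CX3CR1- cells and the CD11b+ cells 0 of 33 members reached 2-fold in either direction, where 3.55% of all genes were higher and 5.19% lower in the CX3CR1- cells. Over the DCs, the CX3CR1- cells had 4 of 33 members higher (all genes 13.7%) and 0 lower (all genes 8.70%). The CD11b+ cells had 4 of 33 higher over the DCs (all genes 17.0%) and 1 lower (all genes 10.4%). With equal medians the CX3CR1- cells had 3 higher (all genes 10.6%) and 1 lower (all genes 13.9%), and the CD11b+ cells 2 higher (all genes 12.9%) and 4 lower (all genes 18.1%).

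**Figure D3:**
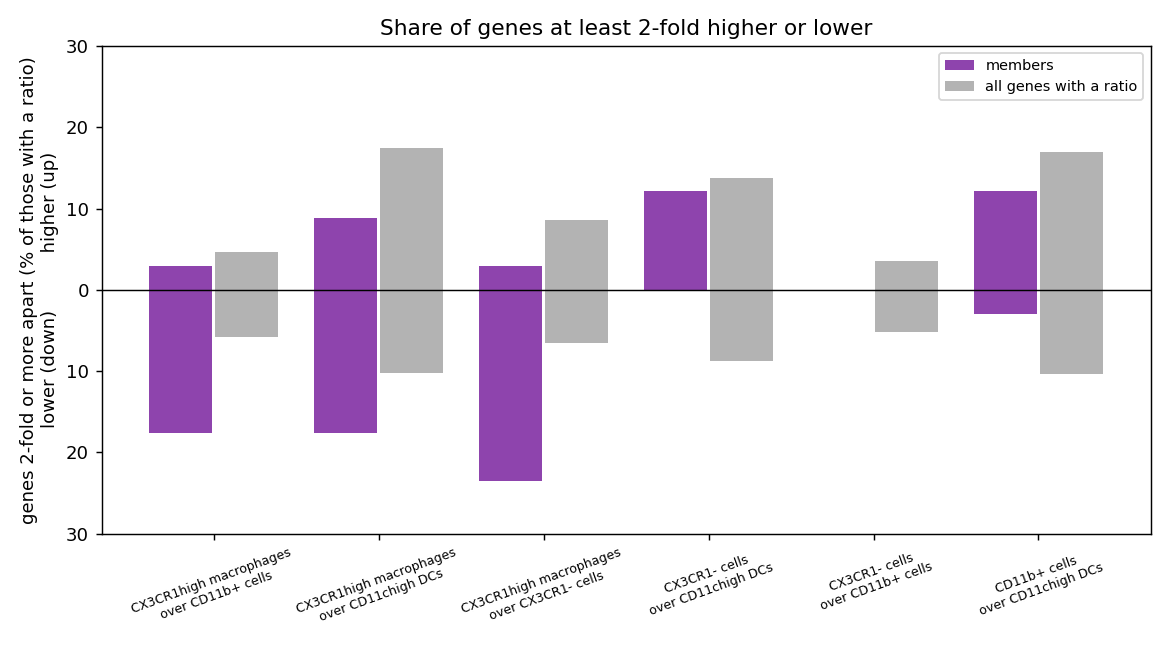
Share of genes at least 2-fold higher (upward bars) or lower (downward bars) in each of the 6 pairs of populations, in percent of genes with a ratio, for the members (purple) and for all genes (grey). The downward purple bars exceed the grey ones in the 3 pairs with the CX3CR1high macrophages (17.6%, 17.6% and 23.5%), and both purple bars are at 0 between the CX3CR1- and CD11b+ cells.

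Of the actins, Actb had signals of 30877.5 (CX3CR1high macrophages), 42291 (CD11b+), 32102 (DCs) and 31110 (CX3CR1-). The CD11b+ cells were thus highest and the other populations lay close together. Its other probe set gave 12205, 21212, 8293 and 27002, and there the CX3CR1- cells were 3.26-fold above the DCs. The 2 probe sets therefore put the populations in different orders. Actg1 had 30877, 42203, 32882 and 34933, close to the first Actb set in every array. Its probe set is of a type that can match more than 1 transcript, and the coding sequences of the actins are nearly the same, so the level of each is uncertain.

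Control probe sets along the Actb transcript, which the rule left out, gave different orders of the arrays at its ends. At the 5′ end their signals were 18968, 12582, 28777 and 13274, and the DCs were 2.29-fold above the CD11b+ cells. At the 3′ end they were 31871, 39996, 32078 and 36574, and the CD11b+ cells were 1.25-fold above the DCs. The ratio of the 3′ over the 5′ signal, which is larger where RNA is degraded, was 1.68, 3.18, 1.11 and 2.76 for Actb. For Gapdh, the other transcript with such controls, it was 1.08, 2.17, 0.791 and 3.404. The part of this difference between arrays in the ratios of the members was not tested.

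**Figure D4:**
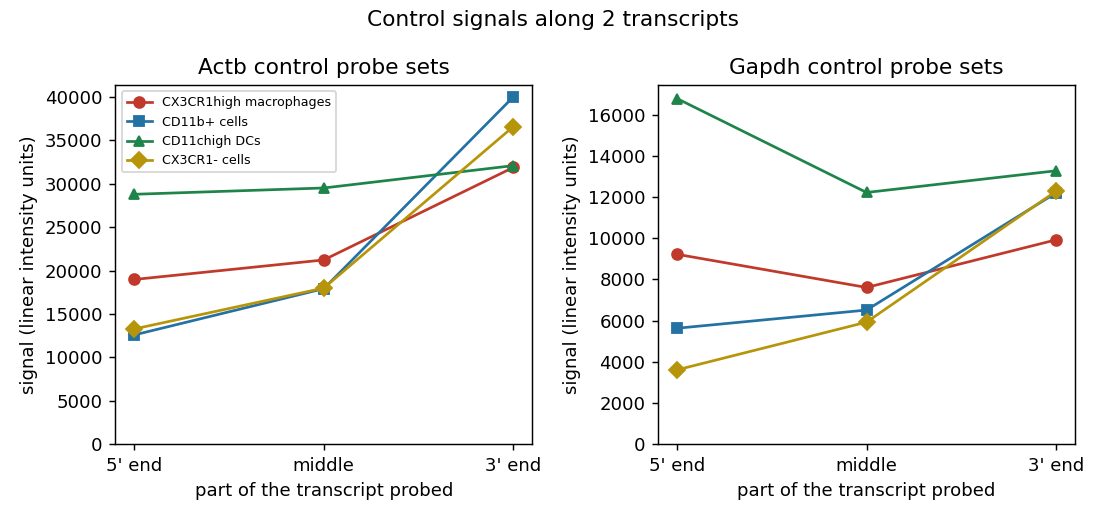
Signals in linear intensity units of control probe sets at the 5′ end, middle and 3′ end of the Actb and Gapdh transcripts, with 1 line per population. The Actb line of the DCs is nearly flat (28777 to 32078), while that of the CD11b+ cells climbs from 12582 to 39996 and crosses it.

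Genes for monomer handling differed in pattern among themselves. Tmsb10, a thymosin that holds actin monomers, had signals of 17090 (CX3CR1high macrophages), 49183 (CD11b+), 32697 (DCs) and 35804 (CX3CR1-). The CX3CR1high macrophages were lowest, 2.88-fold below the CD11b+ cells and 2.09-fold below the CX3CR1- cells. Both further Tmsb10 sets with signals above the floor in every array kept the CX3CR1high macrophages lowest and showed wider gaps. They read 853, 2997, 10399 and 4215, and 3184, 15965, 26738 and 16987.5, and put the DCs highest. Another, weak set ran the other way over the CD11b+ cells (210 against 72.9, below the floor), and the remaining set was below the floor throughout. Tmsb4x, the most abundant thymosin transcript of blood cells, read 44238, 58179, 38968 and 45013. It had the highest signal of the whole array in all but the CD11b+ cells. Pfn1, which loads monomers for growth, read 6311, 6576, 13116 and 7432 by its single probe set. The DCs stood alone, 2.08-fold above the CX3CR1high macrophages. Cfl1, which takes old filaments apart, read 880, 921, 1756 and 1102, just under 2-fold between the same populations (1.99-fold). Its stronger _x_at set read 14563, 17087, 19721 and 18488, with the DCs again highest but only 1.35-fold above the CX3CR1high macrophages.

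The 4 measured subunits of the Arp2/3 complex, which branches filaments, had their lowest signal in the CX3CR1high macrophages and their highest in the DCs by the sets that stand for the genes. By those sets none reached 2-fold in any pair, but further sets of Actr3 and Arpc4 did. Actr3 read 10941.5 (CX3CR1high macrophages), 12620 (CD11b+), 16037 (DCs) and 14227 (CX3CR1-). A further Actr3 set read 5050, 8133, 16075 and 14431, which put the CX3CR1high macrophages 3.18-fold below the DCs and 2.86-fold below the CX3CR1- cells, and another read 6039, 6896, 9777 and 8063, within 2-fold. All 3 Actr3 sets had the same order of populations. Arpc2 read 14033, 19095, 19639 and 18173, and Arpc5 read 4401, 5261, 7657 and 5921. Arpc4 read 1872, 2356, 3107 and 2958, while its other set read 1959, 1765, 4624 and 1824.5, so that the DCs were again highest, 2.36-fold to 2.62-fold above each other population, but the CX3CR1high macrophages were not lowest. The median log2 ratio of the CX3CR1high macrophages over the DCs was -0.64 over the 4 subunits. With equal medians Arpc4 and Arpc5 passed 2-fold against the DCs.

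The activators of Arp2/3 split. Was, the Wiskott-Aldrich protein of blood cells, read 630.5 (CX3CR1high macrophages), 858 (CD11b+), 826 (DCs) and 893 (CX3CR1-), within 2-fold throughout. Wasl, its widely expressed relative, read 745, 521, 253 and 534 and was lowest in the DCs, 2.94-fold below the CX3CR1high macrophages, 2.11-fold below the CX3CR1- cells and 2.06-fold below the CD11b+ cells. Its other sets did not bear this out at 2-fold. A further set read 406, 365, 224 and 220, and another 284, 242, 288 and 207, with the DCs highest.

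Coronins, which act on the turnover of branched actin, also split. Coro1a, the coronin of leukocytes, read 3695 (CX3CR1high macrophages), 9240 (CD11b+), 14658 (DCs) and 9344 (CX3CR1-). The CX3CR1high macrophages were lowest, 2.50-fold, 3.97-fold and 2.53-fold below the others in that order. A second set, at 2257, 7937, 8844 and 11692, gave 3.52-fold, 3.92-fold and 5.18-fold. The remaining, weak set was below the floor in the CX3CR1high macrophages (52.1) and above it elsewhere (278, 182 and 424.5). All 3 Coro1a sets thus put that population lowest, but they disagreed on the highest. Coro1b (2121, 1741, 1966 and 1577) and Coro1c (690, 938, 818 and 1196), its more widely expressed relatives, stayed within 2-fold.

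Vasp, which feeds monomers to growing filament ends, read 3369 (CX3CR1high macrophages), 7608 (CD11b+), 4995 (DCs) and 11878 (CX3CR1-). It was highest in the CX3CR1- cells, 3.53-fold above the CX3CR1high macrophages and 2.38-fold above the DCs. The CD11b+ cells were 2.26-fold above the CX3CR1high macrophages, and Vasp has a single probe set. Evl, of the same family, read 662, 577, 673 and 644 and had the smallest span of all members, 1.17-fold.

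Among genes that cap or cut filaments, Capg, the capping protein of macrophages, was set apart in the DCs. It read 2374 (CX3CR1high macrophages), 2911 (CD11b+), 380 (DCs) and 2203.5 (CX3CR1-). The DCs were 6.24-fold, 7.65-fold and 5.79-fold below the other populations in that order, the opposite of the Arp2/3 subunits, and Capg has a single probe set. The subunits of the general capping protein, Capza1 (3905, 3634, 5983 and 3755), Capza2 (7512, 8428, 6385.5 and 8511) and Capzb (6916, 8043, 9668 and 9346), stayed within 2-fold. Of the further Capzb sets, however, 1 read 3195, 1685, 5556 and 1347, a span of 4.12-fold with the DCs highest.

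Gsn, which encodes the severing protein gelsolin, read 8621 (CX3CR1high macrophages), 27080 (CD11b+), 9235 (DCs) and 13943 (CX3CR1-). The CD11b+ cells stood out, 3.14-fold above the CX3CR1high macrophages and 2.93-fold above the DCs. All 4 further Gsn sets above the floor also had their highest signal there, 2.02-fold to 3.14-fold above the CX3CR1high macrophages. Gelsolin is also made by fibroblasts, and fibroblast markers were likewise highest in the CD11b+ cells. All 7 of these markers were at least 2-fold higher in the CD11b+ cells than in both the CX3CR1high macrophages and the DCs. Their summed signal was 15485 (CX3CR1high macrophages), 60999 (CD11b+), 4980 (DCs) and 21129 (CX3CR1-). Between the CX3CR1high macrophages and the DCs the markers and Gsn differed. Of the 7 markers 5 were at least 2-fold higher in the CX3CR1high macrophages and 0 lower, while Gsn was 1.07-fold lower there. Of the defining collagens, Col3a1 read 6261, 28325, 2360 and 9639, and no marker of the list was below the floor in the CD11b+ cells. Their part in the Gsn signal was not tested.

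Vil1, which encodes villin of epithelial microvilli, was above the floor in the CX3CR1high macrophages alone, at 317, against 52.4 (CD11b+), 49.1 (DCs) and 100.2 (CX3CR1-). By its single probe set it was at least 3.08-fold higher there than in each other population. Epithelial markers moved with it. Of 11 measured, 11 were at least 2-fold higher among CX3CR1high macrophages than in the CD11b+ cells, 8 than in the DCs and 7 than in the CX3CR1- cells, and their summed signal was 18569 against 3241, 4594 and 7743. The keratin Krt8 read 6182, 932, 1192 and 2530, and of the list Krt20 alone was below the floor in any array, in all but the CX3CR1high macrophages (570, 31.3, 53.7 and 56.0). Of the same markers Cdh1 was instead highest in the CX3CR1- cells (640, 143, 496 and 800). The part of these markers in the Vil1 signal was not tested. Ezr, the ezrin of microvilli and also of leukocytes, did not follow Vil1. It read 2067 (CX3CR1high macrophages), 3055 (CD11b+), 4374 (DCs) and 3205 (CX3CR1-). Ezr was lowest where the summed signal of the epithelial markers was highest, and 2.12-fold below the DCs there. Its weaker set read 141, 154, 192 and 195, only 1.36-fold between these populations, and the mean over its sets gave 1.70-fold, under the limit.

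The largest difference of any member was that of Lsp1, an actin-binding protein of leukocytes. It read 847 (CX3CR1high macrophages), 4535 (CD11b+), 14101 (DCs) and 8296 (CX3CR1-). The CX3CR1high macrophages were 5.35-fold, 16.6-fold and 9.79-fold below the others in that order, and the CD11b+ cells 3.11-fold below the DCs. Lsp1 has a single probe set, of a type that can match several transcripts of a gene. Lcp1, the leukocyte bundling protein also called L-plastin, read 6655, 8794, 12518 and 14249.5 and was 2.14-fold lower among CX3CR1high macrophages than in the CX3CR1- cells. Its other set had the same population lowest, 1.66-fold below the CX3CR1- cells and 2.33-fold below the DCs. Ptprc, which encodes the common leukocyte antigen CD45, was within 2-fold over the 4 arrays (8217, 9504, 7233 and 8950). It belongs to a list of 7 leukocyte and myeloid markers, which were not all as even. Of these 7, CX3CR1high macrophages had 2 at least 2-fold above the CD11b+ cells, 5 above the DCs and 4 above the CX3CR1- cells. At that limit 0 were lower in these pairs. Csf1r, for example, read 32267, 27758, 4191 and 21522, and Adgre1 read 8502, 3560, 726 and 2399.

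Of the membrane linkers besides Ezr, Msn, the moesin of leukocytes, read 5404 (CX3CR1high macrophages), 9377 (CD11b+), 6563 (DCs) and 11827.5 (CX3CR1-). It was 2.19-fold lower among CX3CR1high macrophages than in the CX3CR1- cells. A weaker set had the opposite direction, 289, 207, 475 and 204. Rdx, the radixin gene, stayed within 2-fold (809, 1022, 1324 and 1066). Its 3 sets had the DCs highest but differed in the lowest population, with 265, 203, 371 and 205 in a further set and 1004, 925, 1142 and 847 in another.

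At adhesion sites, Zyx and Vcl had the same lowest and highest population, and Tln1 did not. Zyx, the zyxin gene, read 692 (CX3CR1high macrophages), 1683 (CD11b+), 2072 (DCs) and 1629 (CX3CR1-). That was 2.43-fold, 2.99-fold and 2.35-fold below the others in that order. Vcl, the vinculin gene whose promoter is printed above, read 805, 1361, 1959 and 1490, also lowest in the CX3CR1high macrophages and highest in the DCs (2.43-fold). Tln1, the talin that activates integrins, read 2034, 2876.5, 1185 and 2937 and was lowest in the DCs, 2.48-fold below the CX3CR1- cells and 2.43-fold below the CD11b+ cells. Its weaker set kept the DCs lowest (315, 354, 228 and 259) without reaching 2-fold. The second sets of Zyx and Vcl were below the floor.

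Myh9, the heavy chain of nonmuscle myosin that contracts actin, read 5973 (CX3CR1high macrophages), 9623 (CD11b+), 8126.5 (DCs) and 14021 (CX3CR1-). The CX3CR1- cells were highest, 2.35-fold above the CX3CR1high macrophages, and the 3 other Myh9 sets put the same populations at the ends, 1.79-fold to 2.21-fold apart. Myo1f, a membrane myosin of leukocytes, stayed within 1.27-fold (496, 550, 563 and 632). Vim, the intermediate filament vimentin, read 24584, 25160, 28681 and 19803, within 2-fold over the 4 arrays.

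Agreement between probe sets of a gene gave the only spread at hand. It was taken within each pair of arrays and holds no difference between mice or collections. For members with several measured sets the SD of the log2 ratio between sets of a gene was 0.30 to 0.65 over the 6 pairs, against 0.31 to 0.52 for all genes. The smallest value was that between the CX3CR1- and CD11b+ cells and the largest that between the CX3CR1- cells and the DCs. For the 34 calls at 2-fold there were 45 comparisons with a further set of the gene, of which 18 passed 2-fold the same way, 10 lay the same way below it, 5 lay the opposite way below it, 1 (the weak Tmsb10 set) passed it the opposite way and 11 had no ratio.

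**Figure D5:**
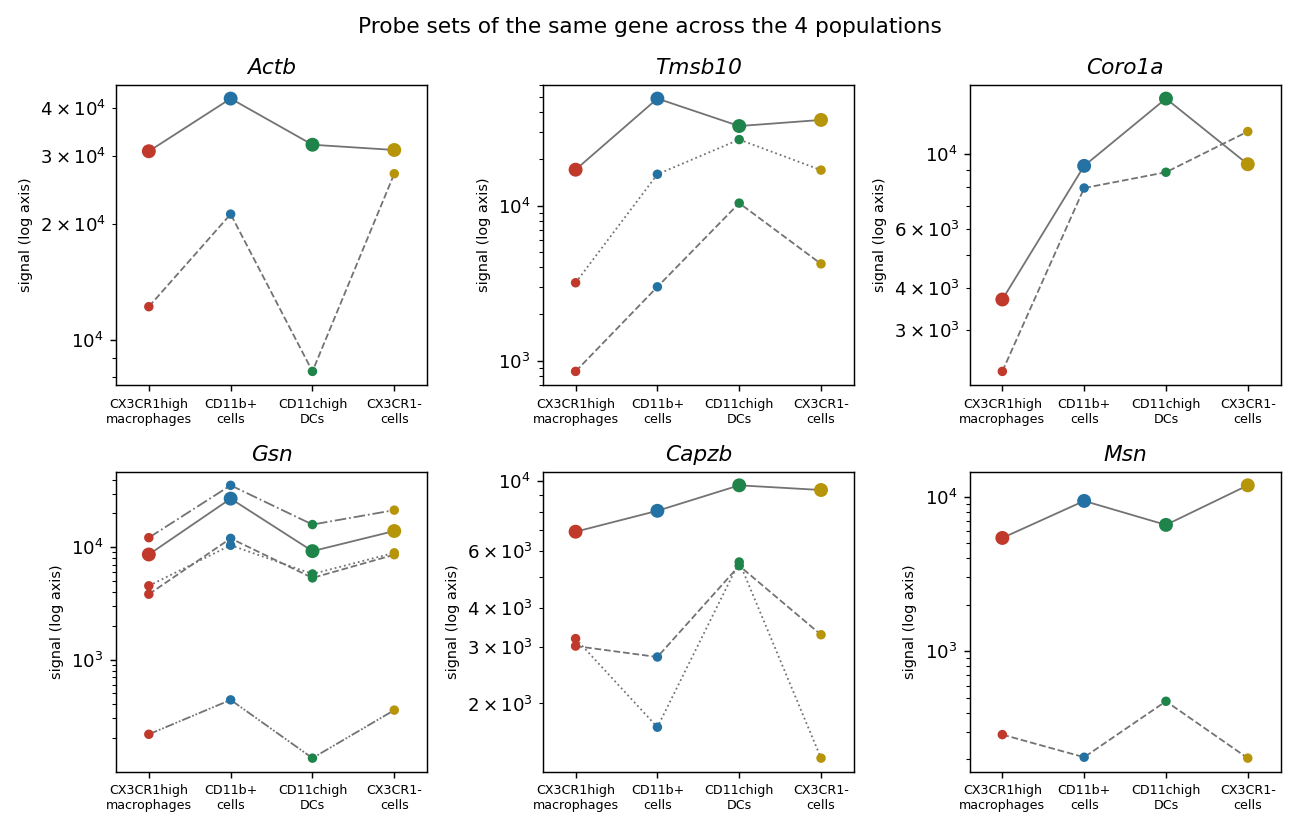
Signals on a log axis of every probe set above the floor in all 4 arrays for 6 member genes, with large points for the set that stands for the gene and lines joining points of 1 set. The sets of Tmsb10 and Coro1a put the CX3CR1high macrophages lowest and those of Gsn put the CD11b+ cells highest, while the sets of Actb, Capzb and Msn differ in their order.

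Other regulators of actin came from 6 lists of 101 genes, of which 86 were measured. Against the CD11b+ cells 3 of the 81 that had a ratio lay 2-fold or more higher in the CX3CR1high macrophages (3.70%; all genes 4.66%) and 8 lower (9.88%; all genes 5.83%). Against the CX3CR1- cells 4 of 81 were higher (4.94%; all genes 8.56%) and 13 lower (16.0%; all genes 6.54%). Against the DCs 16 of 82 were higher (19.5%; all genes 17.4%) and 15 lower (18.3%; all genes 10.2%). Their median log2 ratios were -0.08, -0.22 and 0.08, nearer 0 than those of the members. The CX3CR1- cells had 6 of 81 higher than the CD11b+ cells (7.41%; all genes 3.55%) and 2 lower (2.47%; all genes 5.19%). Over the DCs they had 12 of 82 higher (14.6%; all genes 13.7%) and 5 lower (6.10%; all genes 8.70%), and the CD11b+ cells had 15 higher (18.3%; all genes 17.0%) and 10 lower (12.2%; all genes 10.4%). Genes for integrin linkage had a median log2 ratio of 0.46 for the CX3CR1high macrophages over the DCs, with 3 of 8 higher and 2 lower. Further actin binding genes had -0.24, with 3 of 29 higher and 9 lower, and tropomyosins and myosin chains 0.04, with 3 of 13 higher and 2 lower. WAVE complex and formin genes had 0.01 (3 of 12 higher, 1 lower), and kinases and phosphatases 0.08 (1 of 4 higher, 0 lower).

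Some genes of these lists with large ratios are given as examples, and they need not hold the largest of a pair. Myo5a, a vesicle motor, was 2.22-fold, 3.62-fold and 2.98-fold higher among CX3CR1high macrophages than among CD11b+ cells, DCs and CX3CR1- cells. Lima1, which stabilises filaments, was 2.64-fold above the CD11b+ cells and 2.74-fold above the CX3CR1- cells, and Myo1e 2.08-fold above the CD11b+ cells. Cttn, which binds Arp2/3 branches, was 4.89-fold above the DCs (1029 against 210).

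In the other direction, Cnn2, a calponin of leukocytes and other cells, had the same order of populations as Lsp1. It read 775 (CX3CR1high macrophages), 2475 (CD11b+), 7761 (DCs) and 4611 (CX3CR1-), and was 3.19-fold, 10.02-fold and 5.95-fold lower in the CX3CR1high macrophages. Tiam1, which activates Rac, was 4.03-fold lower there than in the CD11b+ cells and 6.98-fold lower than in the CX3CR1- cells. Ptk2b, an adhesion kinase, was 2.99-fold lower than in the CD11b+ cells, Parvg, a parvin of blood cells, 6.80-fold lower than in the DCs and the bundler Fscn1 4.82-fold lower than in the CX3CR1- cells. The severing protein Scin was highest in the DCs, at 3938, which was 36.3-fold above the CX3CR1high macrophages (109) and 7.91-fold above the CX3CR1- cells (498).

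Among the other 3 populations the same lists showed Fscn1 at 819 (CD11b+), 4159 (DCs) and 7615 (CX3CR1-). The last was 9.30-fold above the CD11b+ cells. Actn1, a filament crosslinker, was 2.802-fold and Swap70, an actin binder of immune cells, 2.62-fold higher in the CX3CR1- cells than in the CD11b+ cells, and Cfl2, the muscle form of cofilin, was 2.26-fold lower. Over the DCs, Mylk, the kinase of myosin light chains, was 5.14-fold and Marcksl1 4.49-fold higher in the CX3CR1- cells, while Arpc5l, a relative of Arpc5, was 3.88-fold and Lima1 2.36-fold lower. Over the DCs the CD11b+ cells had Marcksl1 5.04-fold and Cttn 4.93-fold higher, and Actn1 6.38-fold, Fscn1 5.08-fold and Arpc5l 3.68-fold lower. Smooth muscle and endothelial markers summed to 2464 (CX3CR1high macrophages), 2842 (CD11b+), 713 (DCs) and 2561 (CX3CR1-). Of these Acta2 read 1558, 1920, 367 and 1736. At 2-fold, 2 of 5 with a ratio were higher in the CX3CR1- cells than in the DCs (all genes 13.7%) and 0 lower. The part of these markers in the Mylk and Cttn signals was not tested.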

How the data were processed

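RNA of 4 sorted populations was measured on 1 Affymetrix 3′ array each, with biotin label, per the labels' protocols. The authors deposited intensity values on a linear scale. Per the submitters' processing notes these came from MAS5, whose version was not given in the sources used here. As deposited, each array has a mean of 500.3 with 2% trimmed from each end, and no further scaling was applied. Of 22690 probe sets, 64 controls and those naming several genes or none in the platform's probe table were left out, which leaves 20380 sets and 12393 genes. All 34 member identifiers kept their symbol in the RefSeq annotation. Where 1 of both signals lay under the floor of 102.9, the floor took its place and the ratio is a bound; where both did, no ratio was taken. A gene was called at 2-fold. Members, lists and the limit were chosen with earlier results of these data known. Every measured member is named. From the other lists the rule named the 3 largest measured ratios in each direction of each pair, but 1 list and 1 gene that it named are not reported here, so the named genes are not all of them. Promoters are RefSeq's. Python 3.11.15, pandas 2.3.3 and numpy 2.4.6 were used. The call procedure was run on simulated data with less noise than the spread between probe sets of a gene here. Only genes well above the floor were changed in it, so that run does not measure the error of these calls. 6 alternatives were tried: a floor at the 25th or 75th percentile, quantile normalization, medians set equal, averaging all probe sets of a gene, and leaving out sets of shared types (_s_at, _x_at, _a_at).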

Additional observations from a re-analysis of the deposited data

How the results depend on the processing

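Over 12 counts of members at 2-fold and the count of members lowest in the CX3CR1high macrophages, 64 of 78 recalculations stayed within 1.5 times the reported count. The count of lowest members (24) ran from 17 of 28 genes without shared probe sets to 26 with equal medians. Applying the alternatives to that count was chosen after seeing the data. With the floor at the 75th percentile, Vil1 has no ratio and Wasl is a bound. The CX3CR1high macrophages then had 0 of 33 members higher against CD11b+ cells, 1 against DCs and 0 against CX3CR1- cells. The shares of all genes were 3.71%, 13.8% and 7.05% in that order. Quantile normalization gave 2 of 33 members lower in the CD11b+ cells than in the DCs (all genes 12.3%). Equal medians, which raise the DC array, gave 12 of 34 members lower among CX3CR1high macrophages than DCs (all genes 18.3%). In the CX3CR1- cells 1 of 33 was lower than in the DCs (all genes 13.9%). In the CD11b+ cells 2 of 33 were higher than in the DCs (all genes 12.9%) and 4 lower (all genes 18.1%). The mean over probe sets gave 2 higher and 1 lower of 33 in the CX3CR1- cells over the DCs (all genes 11.7% and 7.97%). For the CD11b+ cells over the DCs it gave 2 higher and 2 lower of 33 (all genes 15.6% and 9.83%). Without shared probe sets, which leaves fewer genes, CX3CR1high macrophages had 1 of 28 members higher over the DCs (all genes 17.5%). The CD11b+ cells then had 0 of 27 lower over the DCs (all genes 10.6%). Of 34 calls, between 21 (without shared sets) and 34 (lower floor) were kept, and 0 turned the other way. No paired analysis was possible because each population has 1 array. With signals alone, detection and depth limits could not be set beyond the floor.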
